A study of Mus musculus with 8 samples.

Results

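The cells described here were non-cycling tumour OT-I cells that carried transcripts of both PD-1 and TIM-3. They were chosen by 6 genes. A barcode was a member if it had exactly 1 called guide RNA, at most 10% of its gene UMIs (unique molecular identifiers, 1 per captured transcript) on mitochondrial genes, at least 2 UMIs of Pdcd1 (PD-1) and of Havcr2 (TIM-3), 0 UMIs of Tcf7, Mki67 and Top2a, and fewer than 3 UMIs of Gzmc. This rule found 2471 members among 23337 single-guide cells, of which 10138 had no UMI of the proliferation genes Mki67 and Top2a and are called non-cycling. The comparison cells were the other 7667 non-cycling cells of the same libraries. Because measured values chose the members, their levels of these 6 genes are given as a description only.

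The cells came from a pooled CRISPR knockout experiment in mice. CD8+ T cells of OT-I:Rosa26-Cas9 mice, which carry 1 T cell receptor transgene against an ovalbumin peptide and express Cas9 from the Rosa26 locus, were activated, given a lentiviral guide library with a CD90.1 (Thy1.1) tag, and transferred into Rosa26-Cas9 mice with orthotopic KPC_OVA pancreatic tumours, a KPC carcinoma line made to express ovalbumin. The hosts were immunocompetent and kept their own T cells, and tagged cells were sorted from the tumours 7 days after transfer. Mice received an anti-PD-1 blocking antibody (3 libraries) or control IgG (1 library), and all cells in both arms carried Cas9, the OT-I receptor and a guide. Each library paired a gene count matrix with guide calls for the same barcodes. The study used several mice per arm in a pair of independent experiments and integrated a pair of batches. The sources used here do not say which mice or which experiment went into which library, so every p-value below measures the spread between these libraries, which may be technical.

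T cells that meet antigen for long periods in tumours pass into a state called exhaustion, with several inhibitory receptors on the cell surface. PD-1 dampens signalling from the T cell receptor and CD28, and TIM-3 marks the later, more differentiated stages of the state. TCF1, the product of Tcf7, maintains the self-renewing precursor cells from which the TIM-3-bearing cells arise, and those later cells retain perforin and granzymes while losing the capacity to expand.

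By library, anti-PD-1 replicate 1 held 333 members, replicate 2 held 312, replicate 3 held 1020 and the IgG library held 806. Starting from the 10138 non-cycling cells, 5933 had at least 2 UMIs of Pdcd1, 2644 of these also had at least 2 of Havcr2, 2557 of these had no Tcf7, and 2471 of these had fewer than 3 of Gzmc. Members held more RNA than their neighbours in every library. Their median total was 13992, 14446.5, 11407 and 6058.5 UMIs, with the 3 anti-PD-1 libraries in order of replicate and IgG last, against 11188.5, 11464, 8943 and 5038 UMIs in the other non-cycling cells. A rule that asks for at least 2 UMIs admits deep barcodes more readily, so results are also given with comparison cells matched on total UMIs within each library and with every cell thinned to 4000 UMIs before the rule was applied.

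Values below are listed in that same library order, in CPM, the usual depth-scaled count, of all cells of a group summed within a library. Pdcd1, the gene of PD-1 (chr1:94038305-94052553 on the minus strand, GRCm38), stood at 349, 359, 479.8 and 539.7 CPM in members and at 261, 263, 299 and 280.0 CPM in the other non-cycling cells. Havcr2, the gene of TIM-3 (chr11:46454935-46481255 on the plus strand), stood at 256, 257, 370.0 and 492 CPM against 66.6, 66.6, 119 and 125 CPM. The comparison cells therefore held a good deal of Pdcd1, and the rule separated the groups more by Havcr2 than by Pdcd1. Gzmc, a granzyme of strongly stimulated killer cells, was held down by the rule at 2.50, 1.68, 8.13 and 8.97 CPM against 10.8, 26.6, 379 and 215 CPM.

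The 250 bases before the RefSeq start of 3 genes are shown because Pdcd1 and Havcr2 define the cells and Prf1 is the gene outside the rule with the smallest p-value against the other cells. Sequences are from GRCm38.p6, 5′ to 3′ on the strand of the gene, with capitals on matches, on either strand, to the letters of AP-1 (TGANTCA), the core of NFAT (GGAAA) and RUNX (TGTGGT).
Pdcd1, chr1:94052554-94052803: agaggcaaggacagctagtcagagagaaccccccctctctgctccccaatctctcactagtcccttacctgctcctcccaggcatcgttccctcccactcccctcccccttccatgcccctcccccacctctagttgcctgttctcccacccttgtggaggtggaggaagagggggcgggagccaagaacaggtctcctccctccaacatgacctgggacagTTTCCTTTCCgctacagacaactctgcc
Havcr2, chr11:46454681-46454930: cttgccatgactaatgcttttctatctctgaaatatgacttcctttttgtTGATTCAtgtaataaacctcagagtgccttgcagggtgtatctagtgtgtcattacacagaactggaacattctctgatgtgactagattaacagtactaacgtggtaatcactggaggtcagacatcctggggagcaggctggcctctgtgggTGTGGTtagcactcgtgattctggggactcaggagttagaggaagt
Prf1, chr10:61297586-61297835: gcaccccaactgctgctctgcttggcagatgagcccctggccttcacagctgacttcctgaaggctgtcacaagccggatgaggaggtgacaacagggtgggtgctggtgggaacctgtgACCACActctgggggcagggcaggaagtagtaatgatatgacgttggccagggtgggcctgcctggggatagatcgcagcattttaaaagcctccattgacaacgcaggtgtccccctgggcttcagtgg
Pdcd1 held 2 adjoining NFAT cores, Havcr2 held 1 AP-1 and 1 RUNX match, and Prf1 held 1 RUNX match. Over all 32851 promoter windows of this length, 6.75% held the AP-1 letters, 55.6% the NFAT core and 14.05% the RUNX letters. These matches describe letters and are not binding data. Lag3 was not in the promoter table.

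The libraries fell into 2 pairs before any comparison was made. Across 10181 genes, the root mean square log2 difference between members of 2 libraries was 0.306 for anti-PD-1 replicates 1 and 2, whose titles share a name, 0.267 for anti-PD-1 replicate 3 and IgG, and 0.455 to 0.462 for all pairs across. Genes that stood apart in this way included Tox, the factor that sustains the exhausted state, at 197, 176, 88.0 and 68.7 CPM in members. Trac, the constant region of the T cell receptor alpha chain, stood at 2151, 2071, 909 and 822 CPM. Anti-PD-1 replicate 3 was thus nearer to IgG than to the other 2 anti-PD-1 libraries, and treatment cannot be told apart from library for any gene that follows this split. Total gene UMIs per library ran from 142945121 to 155974184, and any 2 libraries shared 3 to 22 single-guide barcodes. Markers of other cell types were low in members, whose summed CPM was 10614 to 11649 for 10 T cell genes, 11.3 to 16.2 for 10 macrophage genes and 0 to 0.483 for 7 fibroblast genes. The other summed lists lay at 57.8 to 65.6 CPM for B and plasma cell genes, 9.61 to 14.3 for epithelial and tumour genes, 17.2 to 55.2 for dendritic cell genes, 8.61 to 13.1 for endothelial genes, 6.36 to 8.02 for acinar genes, 0 to 0.563 for neutrophil genes and 0 to 1.15 for CD4 and regulatory T cell genes. In each library dendritic cell genes were higher in members, at 34.8, 17.2, 37.7 and 55.2 CPM against 10.8, 12.2, 33.9 and 47.1 CPM in the other non-cycling cells. Macrophage, B and plasma cell, and endothelial genes were lower in members of each library.

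PD-1 TIM-3 cells made up a larger part of the non-cycling cells in the anti-PD-1 libraries than in the IgG library, but only on raw UMIs. Their share was 37.8% (95% exact Clopper-Pearson interval 34.6 to 41.1), 32.9% (29.9 to 36.0) and 37.7% (35.9 to 39.6) in the anti-PD-1 libraries and 14.4% (13.5 to 15.3) in the IgG library. The intervals cover counting error only. The mean of the anti-PD-1 libraries was 36.1 ± 2.80% (SD, n = 3), 21.8 percentage points above IgG (two-sided exact permutation test, p = 0.25, the smallest p that 3 libraries against 1 allow). The difference was 16.0 points with at least 3 UMIs of both receptor genes, and 6.61 points (13.5% against 6.92%) with all single-guide cells, cycling ones included, as the denominator. With every cell thinned to 4000 UMIs before the rule was applied, the shares became 5.87%, 4.60% and 10.6% under anti-PD-1 and 7.26% in IgG, a difference of -0.24 percentage points (exact permutation p = 1). The IgG value then lay inside the range of the anti-PD-1 libraries. Cells of at least 4000 UMIs, judged on their unthinned counts, gave 37.3 ± 3.32% against 16.6%. The difference thus stayed when only the shallower cells (25, 27, 236 and 1968 of the single-guide cells) were left out. Thinning also counts as non-cycling those cells that lose their few UMIs of Mki67 and Top2a, so the set of cells is wider than on raw UMIs. Among cells of at least 4000 UMIs, it grew from 864, 931 and 2550 to 1415, 1478 and 3754 under anti-PD-1. In IgG it grew from 4236 to 5140, and the part of this growth in the shares was not tested. The IgG library was the shallowest per cell, and the difference seen on raw UMIs was not seen at this fixed depth.

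**Figure D1:**
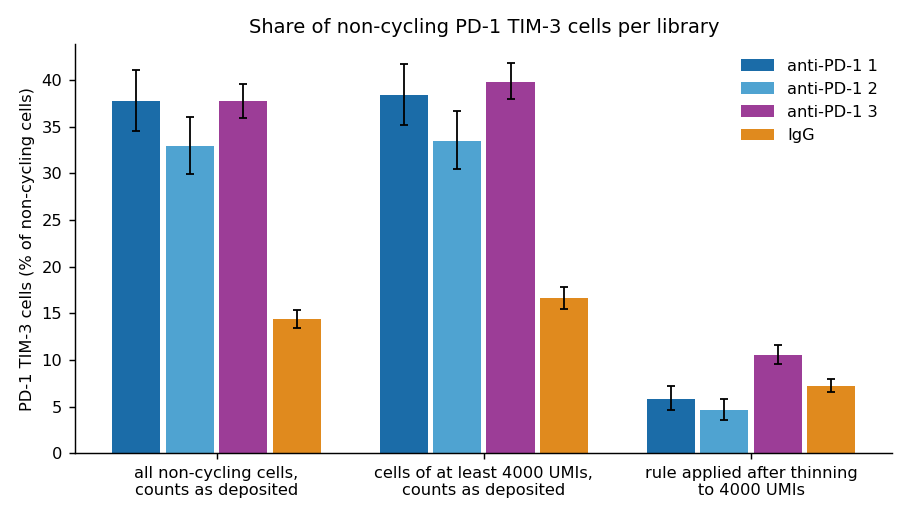
Members as a percentage of non-cycling cells in each of the 4 libraries, for all cells, for cells of at least 4000 UMIs and with the rule applied after thinning to 4000 UMIs, with error bars for 95% Clopper-Pearson intervals. On raw UMIs the 3 anti-PD-1 bars stand at 32.9% to 37.8% and IgG at 14.4%, whereas after thinning IgG (7.26%) lies among the anti-PD-1 libraries (4.60% to 10.6%).

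The rule cuts a range of UMI counts, and many cells lay near its limits. Of the 2471 members, 829 had exactly 2 UMIs of Havcr2 and 541 had exactly 2 of Pdcd1, and 1104 and 516 cells lay just outside with 1 UMI of that gene and all other conditions met. Prf1, which encodes the pore-forming protein perforin, averaged 656 ± 171 CPM (SD, n = 4 libraries) in members with 2 UMIs of Havcr2 and 478 ± 51.8 CPM in the cells just outside with 1. At the Pdcd1 edge it averaged 1035 ± 235 CPM inside and 1174 ± 403 CPM outside. Members with at least 5 UMIs of both receptors, 398 cells, reached 1461 ± 305 CPM. Perforin transcript therefore stepped up across the Havcr2 limit and not across the Pdcd1 limit, as a description with no test, since these cells were sorted by the rule's own genes.

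Splitting the non-cycling cells without Tcf7 and with fewer than 3 UMIs of Gzmc by the 2 receptors gave different orders for different genes. Cells with at least 2 UMIs of Pdcd1 and none of Havcr2 (1671 cells) held Prf1 at 159, 209.9, 255 and 298 CPM. Cells with at least 2 UMIs of Havcr2 and none of Pdcd1 (376 cells) held it at 1376, 538, 1451 and 1044 CPM, and members at 918, 937, 1419.7 and 1018 CPM. In each library the Prf1 level of cells with Havcr2 alone was above that of cells with Pdcd1 alone, and cells with neither receptor (1017 cells) averaged 248 ± 87.6 CPM. Gzmb, the granzyme that triggers apoptosis in target cells, split between the receptors in the same way, at 594 ± 112 CPM with neither, 668 ± 196 with Pdcd1 alone, 3339 ± 934 with Havcr2 alone and 2233 ± 483 CPM in members. Ifng was also higher with Havcr2 alone than with Pdcd1 alone, at 913, 6581, 377 and 541 CPM against 198, 765, 153 and 386 CPM, with anti-PD-1 replicate 2 far above the others. At the edges of the rule it ran the other way. It averaged 537 ± 250.04 CPM in members with 2 UMIs of Havcr2 and 794 ± 281 CPM just outside with 1, and 1101 ± 189.6 CPM in members with 2 UMIs of Pdcd1 and 702 ± 222 CPM just outside. Tox was highest in the cells with Pdcd1 alone in all 4 libraries, at 160.4 ± 75.1 CPM on average, against 132 ± 63.3 in members, 101 ± 68.0 with Havcr2 alone and 104 ± 47.2 with neither. Lag3, an inhibitory receptor that binds MHC class II, averaged 221 ± 86.1 CPM with neither, 286 ± 55.9 with Pdcd1 alone, 370.2 ± 82.3 with Havcr2 alone and 391 ± 67.1 in members. The groups differed in depth, with median totals of 4524 UMIs for neither, 6961 for Pdcd1 alone and 6050.5 for Havcr2 alone, and the part of depth in these levels was not tested. The cells with Havcr2 alone were few in anti-PD-1 replicates 1 and 2 (19 and 21 cells).

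**Figure D2:**
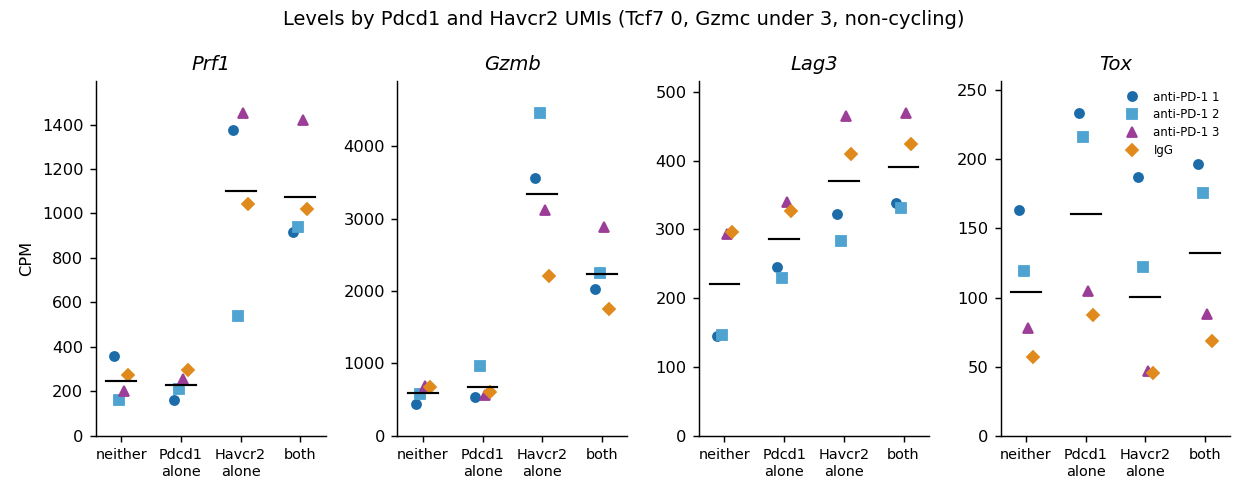
Levels in CPM of Prf1, Gzmb, Lag3 and Tox in non-cycling cells without Tcf7 and with fewer than 3 UMIs of Gzmc, split by Pdcd1 and Havcr2 UMIs, with 1 point per library and a line at the mean of the 4. For Prf1 the cells with Havcr2 alone (mean 1102 CPM) lie near the members (1073 CPM, marked both) and above the cells with Pdcd1 alone (230.3 CPM).

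Against the other non-cycling cells of their library, members were higher in most glycolysis and hypoxia genes and lower in most precursor and memory genes, and Prf1, Gzmb, Ccl3, Ccl4 and part of the inhibitory receptor genes were higher. Of 10181 genes tested with library as a block, 1606 passed an adjusted p of 0.05 by edgeR's quasi-likelihood test, 868 higher and 738 lower. That is 15.8% of all genes tested, 8.53% higher and 7.25% lower, and in 578 genes (5.68%) the 4 member values and the 4 comparison values did not overlap. Cells sorted by 6 genes must differ in whatever varies with those genes or with depth, so these counts describe the sort and nothing is read from them. Differences below are log2 differences of members minus other non-cycling cells with standard errors, and higher or lower means past that threshold. Without anti-PD-1 replicate 3 the count was 1049, and with library left out of the model it was 25.

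Of the label's marker genes outside the rule, Prf1 and Lag3 were higher. Prf1 (chr10:61297833-61304680 on the plus strand) stood at 341, 357, 667 and 479.5 CPM in the other cells, each below the member value of its library, a log2 difference of 1.24 ± 0.04. Lag3 (chr6:124904361-124911705 on the minus strand) stood at 338, 332, 469 and 425 CPM in members against 231, 237, 356 and 332 CPM, a log2 difference of 0.44 ± 0.03. Members were higher in each library, although for Lag3 the ranges of the groups overlapped because of the library split. Tox (chr4:6686353-6991557 on the minus strand) was at 214, 181, 84.9 and 70.1 CPM in the other cells, a log2 difference of -0.03 ± 0.04 that did not pass (adjusted p = 0.687) and whose sign turned under 5 of the alternatives tried. Of the genes of the label, Pdcd1 and Havcr2 were fixed by the rule and bear on nothing, so the cells are called PD-1 TIM-3 cells here, after the rule.

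Among 17 inhibitory receptor and ectoenzyme genes, 8 were higher and 0 lower (median log2 difference 0.07, against 0.00 over all genes). Ctla4, whose product competes with CD28 for its ligands (chr1:60887000-60915832 on the plus strand), stood at 471, 489, 215 and 175 CPM in members and at 317, 321, 126 and 109 CPM in the other cells, a log2 difference of 0.66 ± 0.04. Entpd1, the ATP-degrading ectoenzyme CD39, differed by 0.62 ± 0.07, and Lilrb4a, an inhibitory receptor of myeloid and activated T cells, by 0.39 ± 0.06. The sign of Lilrb4a turned to -0.015 with nontargeting guides only. Tigit, added after its values were seen, was low in both groups and differed by 0.44 ± 0.10. The remaining members of the list, such as Cd160 at 0.03 ± 0.04 and Btla at -0.19 ± 0.12, did not pass. Receptors other than those of the rule were thus raised in some cases only, and with depth-matched comparison cells the list gave 7 higher and 0 lower.

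Killing genes were abundant and mostly higher. Gzmb was at 2034, 2251, 2890.3 and 1755 CPM in members and 781, 1286, 1937 and 1093 CPM in the other cells, a log2 difference of 0.86 ± 0.07. Of 18 cytotoxic genes tested, 10 were higher and 5 lower. Gzma, another granzyme, averaged 1355 CPM in members and 1321 CPM in the other cells and did not pass (0.16 ± 0.06). Gzmd and Gzmf, which lie beside Gzmc in the granzyme cluster, were lower by -6.62 ± 0.24 and -4.57 ± 0.34, and their differences fell to -0.37 and -0.32, neither past the threshold, when the limit on Gzmc was lifted. The low level of these granzymes was therefore set by the rule. Fcer1g, a signalling adaptor of NK and myeloid cells, behaved likewise, at -1.07 ± 0.12 with the limit and -0.12 without it.

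The inflammatory chemokine genes Ccl3 and Ccl4 were abundant and higher in members. Ccl3 stood at 2868, 3467, 2674 and 2326 CPM in members against 1157, 1996, 838 and 848 CPM, a log2 difference of 1.31 ± 0.08 with no overlap. Ccl4 stood at 6602, 7114, 8232 and 6799 CPM against 2753, 5738, 3287 and 2816 CPM, a log2 difference of 1.05 ± 0.10, also with no overlap. Ifng, the macrophage-activating cytokine interferon-γ, was at 794, 798, 925 and 1193 CPM against 399, 852, 299 and 489 CPM (0.97 ± 0.15), so that anti-PD-1 replicate 2 was the exception to a higher value in members. Tnf was low in both groups, at 10.00, 11.8, 43.4 and 37.8 CPM against 10.1, 13.1, 34.7 and 29.7 CPM. Its log2 difference of 0.25 ± 0.08 was positive in replicate 3 and IgG only and turned to -0.10 when anti-PD-1 replicates 1 and 2 were fitted alone. Ccl1, a ligand of CCR8, differed by 0.33 ± 0.09 and likewise turned to -0.04 in those 2 libraries. Of 18 cytokine and chemokine genes tested, 9 were higher and 3 lower.

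**Figure D3:**
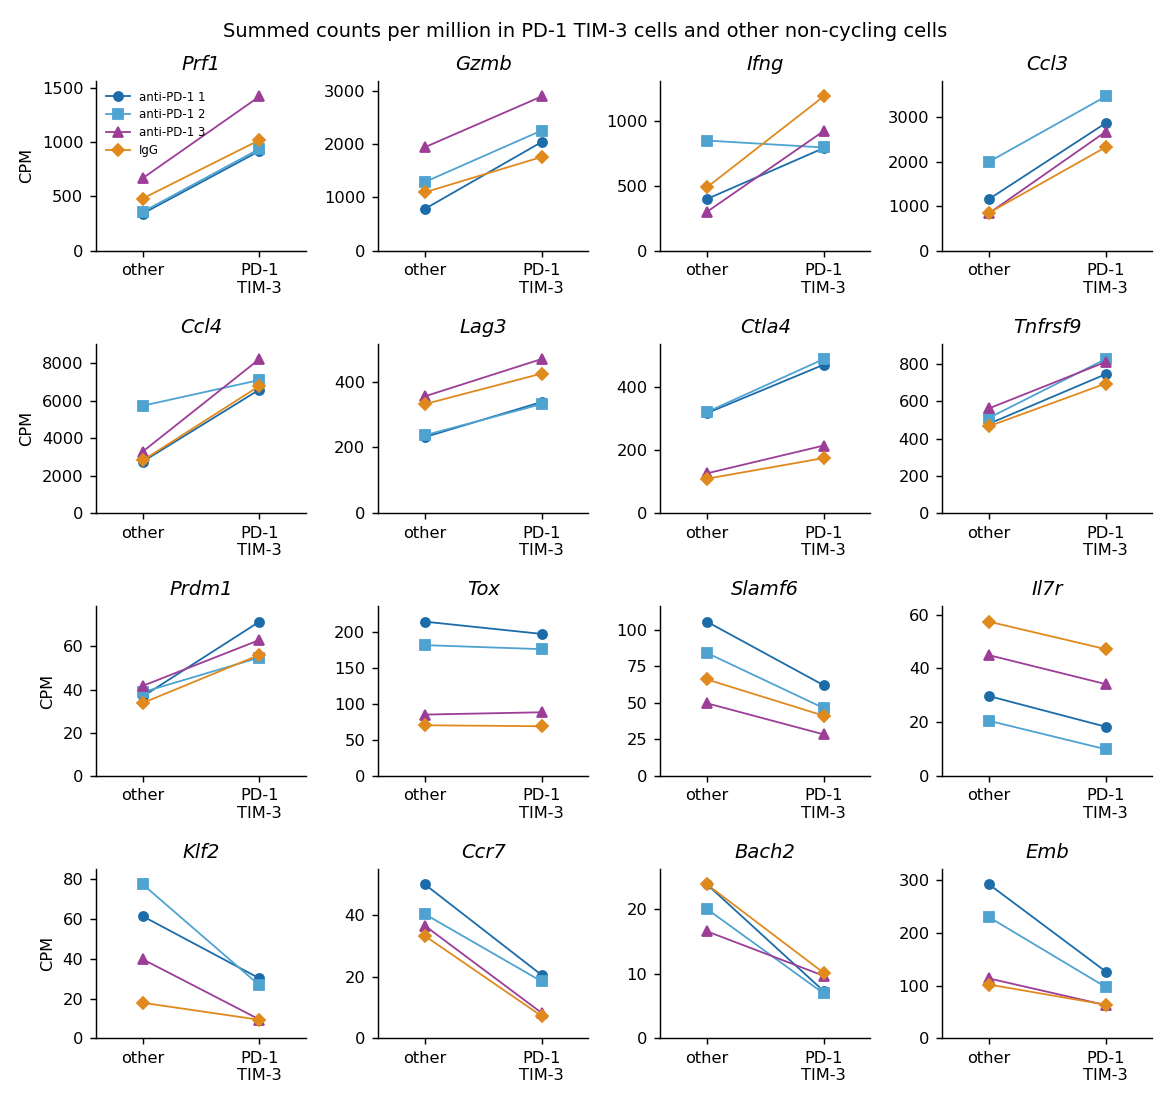
CPM from 0 in the other non-cycling cells (left) and in members (right), with 1 line per library, for 16 genes. Prf1, Gzmb, Ccl3 and Ccl4 rise from left to right in all 4 libraries, the lines of Tox are nearly level, and those of Slamf6, Klf2 and Emb fall.

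Precursor and memory genes were mostly lower. Of 21 tested, 16 were lower and 1 higher, with a median log2 difference of -0.78. Members were chosen for the absence of Tcf7, a factor of precursor cells, and the part of that choice in the whole list was not tested. Slamf6, a surface receptor of precursor cells, stood at 62.1, 46.5, 28.4 and 41.2 CPM in members and 106, 84.3, 49.7 and 66.1 CPM in the other cells, a log2 difference of -0.78 ± 0.05. Among cells that also lacked Tcf7, those with Pdcd1 alone held Slamf6 at 77.8, 96.2, 54.9 and 64.6 CPM, above the members in every library. Those with Havcr2 alone held it at 47.9, 64.6, 13.6 and 31.4 CPM, below the members in all but anti-PD-1 replicate 2. Both groups were split by the rule's own genes, so these levels are a description with no test. Klf2, the factor that keeps cells quiescent and circulating, stood at 30.2, 26.7, 9.50 and 9.35 CPM against 61.5, 77.5, 39.8 and 17.9 CPM (-1.47 ± 0.12). Both genes were lower in members of every library. Ccr7, the lymph node homing receptor, differed by -1.67 ± 0.12 and Bach2, a repressor that preserves stemness, by -1.19 ± 0.12. The KLF2 target S1pr1, the egress receptor, differed by -1.68 ± 0.17 and Id3 by -3.17 ± 0.24, 2 genes of low level that were added after their values were seen. Il7r, the receptor of the survival cytokine IL-7, was at 18.3, 9.88, 34.1 and 47.1 CPM against 29.7, 20.5, 44.9 and 57.4 CPM (-0.46 ± 0.08), and did not pass after thinning (-0.12, adjusted p = 0.703). Xcl1, a chemokine for cross-presenting dendritic cells that precursor cells also express, did not pass (-0.16 ± 0.07).

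Transcription factors of effector and exhausted cells were mostly higher, with 15 of 24 higher and 2 lower. Prdm1, which encodes the terminal differentiation factor BLIMP-1, stood at 71.5, 54.9, 63.0 and 56.1 CPM in members and 36.8, 38.8, 41.7 and 33.8 CPM in the other cells, with no overlap (0.69 ± 0.06). Nr4a2 (0.57 ± 0.08) and Nr4a3 (0.46 ± 0.08), nuclear receptors induced by T cell receptor signals, and Irf8 (0.50 ± 0.03) were also higher. Eomes and Ikzf2, added after their values were seen, were the 2 lower genes, at -0.31 ± 0.08 and -0.25 ± 0.06. T cell receptor genes moved little. Trac differed by 0.13 ± 0.02 and Trbc2, the beta chain constant region, by -0.23 ± 0.03.

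Costimulatory receptors were mostly higher, and the other receptor lists were divided. Of 11 costimulatory genes, 7 were higher and 1 lower, among them Tnfrsf9 (4-1BB) at 745, 826, 810.5 and 695 CPM against 479, 511, 561 and 466 CPM, a log2 difference of 0.61 ± 0.03 with no overlap. Tnfrsf4 (OX40) differed by 0.62 ± 0.07 and Icos by 0.52 ± 0.04. Il2ra, the high-affinity chain of the IL-2 receptor, differed by 0.74 ± 0.09, while 5 of 18 cytokine receptor genes were higher and 3 lower. The chemokine receptor list was divided, with 4 of 9 higher and 4 lower. Cxcr6, which retains T cells beside CXCL16-bearing cells, and the proton-sensing receptor Gpr65 were higher (0.46 ± 0.04 and 0.60 ± 0.04), and Cxcr3 and the oxysterol receptor Gpr183 were lower (-0.87 ± 0.08 and -1.07 ± 0.08). Of 15 integrin and residency genes, 5 were higher, led by the G protein regulator Rgs1 (0.57 ± 0.03), and 5 lower, led by the integrin beta chain Itgb1 (-0.50 ± 0.05). Of 9 NK receptor genes, 3 were higher and 5 lower, Klrc1 by 0.32 ± 0.04 and Cd7 by -0.34 ± 0.06.

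Glycolysis and hypoxia genes were higher almost throughout, with 24 of 27 higher, 0 lower and a median log2 difference of 0.39. Slc16a3, which exports lactate, stood at 87.5, 92.9, 139.7 and 134 CPM in members against 43.2, 45.4, 82.2 and 87.6 CPM (0.81 ± 0.06). Bnip3, a mitophagy gene induced by hypoxia, differed by 0.73 ± 0.07 and the glycolytic enzyme gene Tpi1 by 0.53 ± 0.04. Depth-matched cells gave 21 higher and 0 lower and thinned cells 19 higher and 0 lower. Over all genes, 6.35% were higher and 5.38% lower with depth-matched cells, and 4.41% higher and 3.45% lower after thinning. Nuclear genes of oxidative phosphorylation gave 8 higher and 1 lower of 80 as sorted, a share of higher genes near that over all genes, and 0 higher and 9 lower of 79 after thinning. Ribosomal protein genes gave 63 of 80 lower, with a small median of -0.09.

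**Figure D4:**
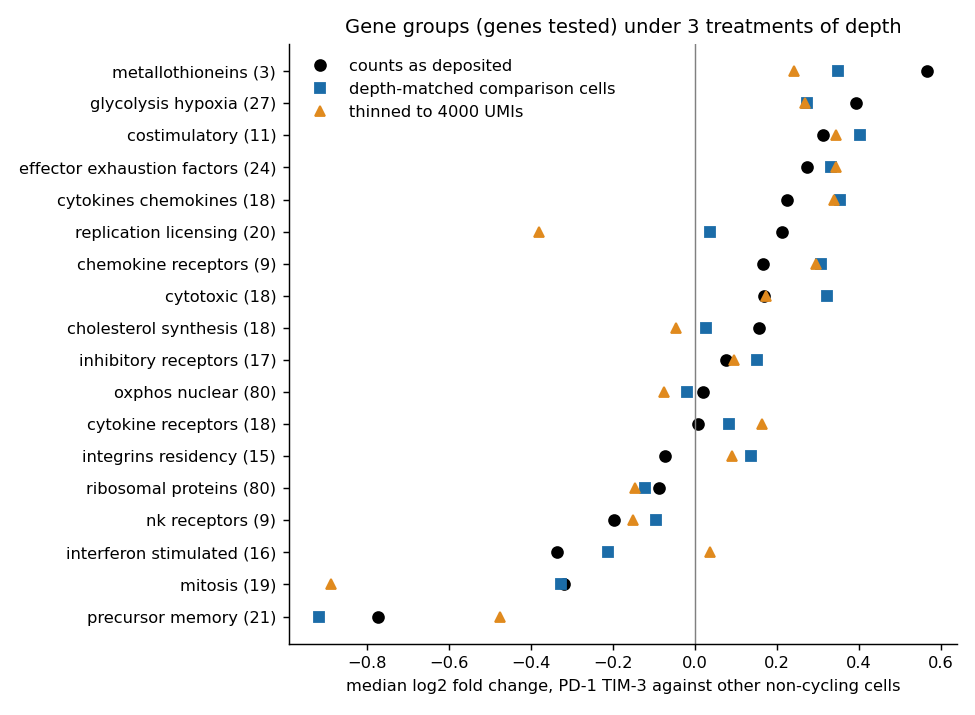
Median log2 difference of members minus other non-cycling cells over the tested genes of each list (number of genes as deposited in brackets), with counts as deposited, depth-matched comparison cells and cells thinned to 4000 UMIs. Glycolysis and hypoxia genes lie right of 0 and precursor and memory genes left of it in all 3, whereas replication, cholesterol, oxidative phosphorylation, interferon and integrin genes change sides.

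Other lists changed when comparison cells were depth-matched or cells were thinned. Thinning came before the rule and so also changed which cells were members, and the part of depth alone was not tested. DNA replication genes gave 10 of 20 higher and 0 lower as sorted, 2 higher and 0 lower with depth-matched cells, and 0 higher and 6 lower after thinning, when cells with few UMIs of Mki67 or Top2a also entered the non-cycling set. Mcm3, a subunit of the replicative helicase, went from 0.38 ± 0.05 to -0.52. Interferon-stimulated genes gave 8 of 16 lower as sorted, 3 with depth-matched cells and 1 after thinning, and Isg15 went from -0.54 ± 0.11 to 0.25. Cholesterol synthesis genes gave 5 of 18 higher and 1 lower as sorted, and 0 higher and 0 lower after thinning. These 3 lists are therefore not used to describe the cells. Mitosis genes gave 0 higher and 6 lower of 19, Birc5 by -0.47 ± 0.11, and neither group held a UMI of Mki67 or Top2a. Members held more UMIs per cell, so the limit of 0 UMIs was stricter for them, and its part here was not tested. Metallothioneins were all higher (3 of 3, Mt1 by 0.57 ± 0.06), with 1 of 3 past the threshold after thinning. Immediate early genes gave 3 higher and 4 lower of 17. Fos, a component of AP-1, was lower over the 4 libraries (-0.37 ± 0.10), and its sign turned to 0.10 with anti-PD-1 replicate 3 and IgG alone. Of 10 T cell identity genes, 6 were higher and 1 lower, Cd2 by 0.31 ± 0.04.

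Outside these lists, the largest rises among well-measured genes of the same sign in all 4 libraries were led by Gem, a small GTPase, at 97.5, 91.6, 101 and 70.8 CPM in members and 48.9, 60.3, 54.0 and 44.2 CPM in the other cells (0.81 ± 0.06). Zbtb32, a repressor of the BTB zinc finger family, differed by 0.80 ± 0.05, Lyst, required for lytic granule biogenesis, by 0.77 ± 0.04, Gpd2, a mitochondrial glycerol-3-phosphate dehydrogenase, by 0.64 ± 0.06, and Hilpda, a lipid droplet protein gene induced by hypoxia, by 0.63 ± 0.04. Sdcbp2, Sult2b1 and Tmem163 differed by 0.78 ± 0.07, 0.71 ± 0.06 and 0.65 ± 0.06. The largest falls were led by Emb, which encodes the membrane glycoprotein embigin, at 126, 97.1, 62.9 and 63.7 CPM against 291, 229, 113 and 102 CPM (-1.001 ± 0.06). Gramd3 differed by -0.99 ± 0.06, the cofilin phosphatase gene Ssh2 by -0.92 ± 0.07, the actin regulator gene Evl by -0.82 ± 0.06, the translation inhibitor gene Pdcd4 by -0.79 ± 0.06 and Sesn3, a brake on mTORC1, by -0.75 ± 0.06.

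The members were not uniform. In cells thinned to 4000 UMIs (2364 members), the genes whose UMIs varied most for their mean were secreted products. The variance of Xcl1 was 71.9 to 96.8 times its mean across the 4 libraries, and that of Ccl4 was 62.0 to 95.1 times its mean. Ccl3 and Ccl4 varied together, with Spearman's rho across members of 0.77 to 0.82 within the libraries (332, 312, 1016 and 704 cells). Both varied with Ifng less closely, at 0.45 to 0.58 for Ccl3 and 0.41 to 0.58 for Ccl4. Gzmb and Prf1 gave 0.34 to 0.42. Xcl1 gave positive values with Ccl1 (0.30 to 0.36), Ccl3 (0.17 to 0.28), Ifng (0.16 to 0.25) and Ccl4 (0.12 to 0.27). Its values were negative in all 4 libraries at -0.28 to -0.23 with Gzmb, -0.22 to -0.17 with Prf1 and -0.35 to -0.24 with Ccl5. All these values come from cells that share a library and a fixed total of UMIs, they describe these cells, and they carry no test.

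Members were also set beside the cells that failed the rule on 1 gene alone, Gzmc or Tcf7. Cells that met every condition but had at least 3 UMIs of Gzmc numbered 86 (4, 4, 50 and 28 by library), and 138 of 8787 genes (1.57%) differed from them, 49 higher (0.558%) and 89 lower (1.01%) in members. The count was 29 without anti-PD-1 replicate 3 and 70 without IgG, the libraries that held most of these cells. Members were lower in Fcer1g (-3.83 ± 0.19), in Gzma (-2.41 ± 0.17), in the interferon-induced membrane protein gene Ifitm1 (-2.46 ± 0.18), in Nrn1 (-2.41 ± 0.25) and in the NK receptor gene Klra5 (-2.07 ± 0.18). They were higher in Tox, at 197, 176, 88.0 and 68.7 CPM against 0, 46.2, 20.7 and 27.4 CPM (2.01 ± 0.27), in Slamf6 (1.74 ± 0.41), in Nr4a1, a marker of recent receptor signalling (1.55 ± 0.29), in Pacsin1 (2.24 ± 0.36) and in Ighm (1.54 ± 0.33). Tox, which did not set members apart from the rest, thus did so against the cells with Gzmc in all 4 libraries, on 4 cells in each of the first 2. The cells with Gzmc had median totals of 12420.5, 18192, 15751.5 and 8947.5 UMIs, above the members in all but anti-PD-1 replicate 1. No depth-matched count was made.

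Cells that met every condition but had a UMI of Tcf7 numbered 82 (13, 17, 28 and 24), and 182 of 8723 genes (2.09%) differed, 84 higher (0.963%) and 98 lower (1.12%) in members. The count was 63 without anti-PD-1 replicate 3. Members were lower in Gpr183 (-1.85 ± 0.20), Gramd3 (-1.45 ± 0.20), Emb (-1.42 ± 0.13), Cxcr3 (-1.37 ± 0.20) and Klhl6 (-1.24 ± 0.22), 4 of which were also the genes named as lower than in the other non-cycling cells. They were higher in Ifng, at 794, 798, 925 and 1193 CPM against 386, 447, 362 and 334 CPM with no overlap (1.27 ± 0.10), in Sv2c (2.02 ± 0.36), in Klra5 (1.78 ± 0.27), in the helicase gene Mcm5 (1.35 ± 0.32) and in Ifitm2 (1.33 ± 0.26). Of 27 glycolysis and hypoxia genes, 10 were higher and 0 lower, and of 18 precursor and memory genes, 7 were lower and 0 higher. The cells were split by Tcf7, itself a factor of precursor cells, and the part of that split was not tested. Tcf7-bearing cells were also among the other non-cycling cells, so the 4 shared genes are not independent. The Tcf7-bearing cells had median totals of 15597, 18197, 11232 and 7475 UMIs, above the members in all but anti-PD-1 replicate 3. No depth-matched count was made.

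Cycling cells with the same receptors, 4487 in number (836, 808, 1742 and 1101), outnumbered the members on raw UMIs. They were deeper, with median totals of 23078.5, 22002, 16302.5 and 9447 UMIs, and no depth-matched count was made. Between them and the members 4122 of 10843 genes (38.0%) differed, 2097 higher (19.3%) and 2025 lower (18.7%). All 20 mitosis genes and all 20 replication genes tested were lower in members, which the exclusion of Mki67 and Top2a sets in large part. The histone gene Hist1h2ap (-5.23 ± 0.07), the spindle genes Nusap1 (-5.22 ± 0.09) and Hmmr (-5.17 ± 0.11), the mitotic kinase gene Plk1 (-5.19 ± 0.13) and the linker histone gene Hist1h1b (-5.14 ± 0.08) led the falls. The genes higher in members included the chemokine gene Xcl1, at 3134, 4099.6, 2482 and 2670.3 CPM against 1473, 1826, 1156 and 1523 CPM with no overlap (1.07 ± 0.04), the histone demethylase gene Kdm5b (1.23 ± 0.06), Spp1, which encodes osteopontin (0.91 ± 0.13), and Rgcc (0.85 ± 0.08). Most genes of 3 lists were higher in the non-cycling members, with 13 of 17 inhibitory receptor genes higher and 0 lower, 25 of 27 glycolysis and hypoxia genes higher and 0 lower, and 16 of 19 cytokine and chemokine genes higher and 1 lower.

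Within the PD-1 TIM-3 cells, no gene passed between anti-PD-1 and IgG libraries. The count was 0 of 10204 genes (0.0%) by edgeR's quasi-likelihood test and 0 by DESeq2, with 222 and 92 genes at an unadjusted p under 0.05. Lag3 differed by -0.14 ± 0.22 on the log2 scale (anti-PD-1 minus IgG), Prf1 by 0.12 ± 0.26 and Gzmb by 0.47 ± 0.22. For these 3 genes the IgG value lay inside the range of the anti-PD-1 libraries or, for Gzmb, below it. The sign of Lag3 turned to 0.16 with a term for the library pair, and that of Prf1 to -0.11 without anti-PD-1 replicate 3. Tox differed by 1.18 ± 0.43 (edgeR adjusted p = 0.999), with anti-PD-1 replicate 3 (88.0 CPM) nearer to IgG (68.7 CPM) than to the other anti-PD-1 libraries. Ifng (-0.48 ± 0.16) was highest in the IgG library, and Ccl5, a chemokine of effector and memory T cells, stood at 4662, 5515, 7972 and 4598 CPM (0.42 ± 0.28). In simulated counts, the test between treatments recovered 21% of genes given a log2 change of 1, so changes of that size could be missed.

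The 5 genes with the smallest p did not follow the library split. Mt2, a metallothionein, stood at 68.8, 53.4, 56.2 and 32.1 CPM (0.91 ± 0.21), the nuclear receptor gene Rora at 31.3, 25.9, 22.9 and 13.0 CPM (1.05 ± 0.26) and the early response gene Ier3 at 56.7, 64.5, 62.1 and 37.0 CPM (0.75 ± 0.20). The chemokine gene Ccl9 stood at 4.998, 5.26, 10.7 and 0.954 CPM, and the replication factor gene Pclaf was highest in IgG, at 26.9, 24.6, 19.9 and 44.1 CPM (-0.88 ± 0.22). The directions of Pclaf and Mt2 turned under 1 alternative each, Pclaf to 0.23 after thinning to 4000 UMIs and Mt2 to -0.050 with nontargeting guides only. In each of the 5 the IgG library lay outside the range of the anti-PD-1 libraries, and each had an edgeR adjusted p of 0.999. With a term for the library pair, 41 genes passed, these 5 among them, and without anti-PD-1 replicate 3 1078 genes passed. In that second fit treatment and library pair cannot be told apart, and with 1 IgG library the treatment and that library cannot be told apart in any of these fits.

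Whether the difference between members and other cells itself depended on treatment was tested as an interaction. It gave 0 of 11017 genes (0.0%) by edgeR and 0 by DESeq2, with 388 and 17 at an unadjusted p under 0.05, and 79 genes without anti-PD-1 replicate 3. The smallest p belonged to Tnfrsf4, whose member excess was larger in the anti-PD-1 libraries (201, 182 and 197 CPM against 103, 118 and 120.1) than in IgG (198 against 166 CPM), an interaction of 0.51 ± 0.11 with an edgeR adjusted p of 1. Areg, an epidermal growth factor family ligand, had no UMI in IgG members and 13.5, 25.6 and 2.50 CPM in anti-PD-1 members. Hist1h2ae, a replication histone gene, had an interaction of -0.84 ± 0.21.

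The guides allowed the share of members to be compared between gene knockouts. The guide library held 280 features for 84 targets and 34 nontargeting controls, and 83 targets and 269 guides were seen among members. A target had 25.5 members on median, between 2 and 67. Counts of members per target were compared with counts of other non-cycling cells, with library as a block, in 82 targets and the pooled nontargeting controls (sgNT). No target passed, with 0 of 83 called (0.0%), 6 at an unadjusted p under 0.05 and the smallest edgeR adjusted p at 0.473. Log2 differences ran from -1.66 to 1.11. The controls lay near the middle, at 0.11 ± 0.21 (296 members of 1149 non-cycling cells, 283 expected from the library shares). In simulated counts, this test recovered 10% of targets given a log2 change of 1 and 80% of those given 2. Changes of the smaller size could therefore be missed.

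The 3 targets with the smallest p on the high side were Pgam2, a phosphoglycerate mutase gene (51 members of 158 cells, 0.65 ± 0.27), Cops8, a subunit gene of the COP9 signalosome (19 of 48, 1.11 ± 0.50), and Asah2, a ceramidase gene (42 of 124, 0.63 ± 0.32). On the low side they were Kmt2c, a histone H3 lysine methyltransferase gene (24 of 151, -0.75 ± 0.32), Setd1b, of the same enzyme class (10 of 71, -1.17 ± 0.54), and Tgds, a sugar nucleotide dehydratase gene (34 of 180, -0.56 ± 0.27). Kmt2c cells were members in 21.4%, 14.3%, 41.2% and 5.62% of non-cycling cells by library, against 32.4%, 43.1%, 41.4% and 13.7% for sgNT. Elovl1, a very long chain fatty acid elongase gene, had 9 members of 23 non-cycling cells, 13 of 29, 10 of 25 and 13 of 55 by library (45 of 132, 0.51 ± 0.29, edgeR adjusted p = 0.473). The Elovl1 share was above that of the controls in 3 of 4 libraries, and the difference did not pass.

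**Figure D5:**
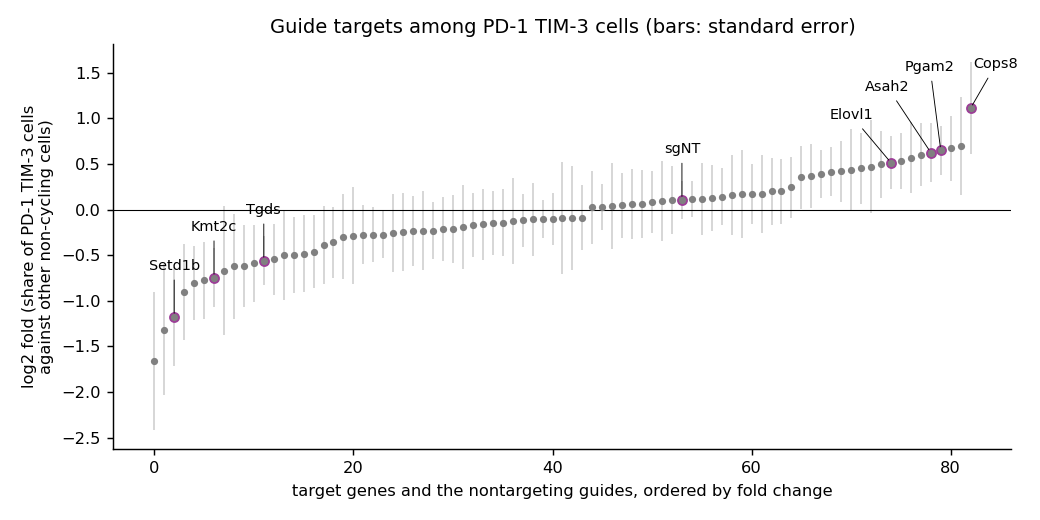
Log2 difference in members against other non-cycling cells for 82 targets and sgNT, ordered by that value along the horizontal axis, with bars for the standard error and the named targets labelled. The values run from -1.66 to 1.11, sgNT lies at 0.11, and no target passed an adjusted p of 0.05.

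The guides behind 3 of these targets are shown to set the counts of single guides side by side. Each is written 5′ to 3′ with the PAM of the genome in capitals, and positions are those of the protospacer on GRCm38.
Kmt2c guide 1 (chr5:25314997-25315016, plus strand, coding exon 36 of 59): aaaaggcccattacccaatgGGG
Kmt2c guide 2 (chr5:25404311-25404330, minus strand, coding exon 6 of 59): agaaccattattagtaaacgTGG
Kmt2c guide 3 (chr5:25351054-25351073, minus strand, coding exon 23 of 59, without PAM because it meets the exon edge): ggtgaaatggatgatagtcg
Cops8 guide 1 (chr1:90610081-90610100, plus strand, exon 1 of 2 of a non-coding transcript): ctttcacaatagatgcaacaAGG
Cops8 guide 2 (chr1:90604399-90604418, minus strand, coding exon 2 of 8): agaagctgaccgtacactggCGG
Cops8 guide 3 (chr1:90606610-90606629, plus strand, coding exon 4 of 8): caaccatcaacgcccaccagTGG
Elovl1 guide 1 (chr4:118431110-118431129, minus strand, coding exon 4 of 8): ggctattggaaaagtctatgGGG
Elovl1 guide 2 (chr4:118431655-118431674, minus strand, coding exon 7 of 8): gggcagacaatccatagtagAGG
Elovl1 guide 3 (chr4:118430724-118430743, plus strand, coding exon 3 of 8): tccaaagctaccctctgatgGGG
The Kmt2c difference came from guide 1, with 6 members where 13.0 were expected from the library shares, and guide 2, with 3 where 7.71 were expected, while guide 3 had 15 members against 14.8 expected. The Cops8 difference came from guide 1, with 15 members against 7.16 expected, and guides 2 and 3 had 2 members each against 2.04 and 2.37 expected. Elovl1 guides 1, 2 and 3 had 12, 14 and 19 members against 10.7, 11.9 and 13.0 expected, so most of the members beyond expectation carried guide 3. Guides of 1 target share that target and are not replicates of a condition, and tested 1 by 1 no guide passed.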

How the data were processed

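Droplet single-cell RNA-seq with guide capture was analysed in 4 libraries, each a gene matrix and guide calls. Per the labels and the submitters' processing notes, the authors aligned reads to mm10 with Cell Ranger 3.1.0 and used Seurat in R 3.6.3. Not given in the sources used here: the annotation release. Deposited matrices contain UMI counts, without normalization, for each gene and barcode, and the deposited guide tables hold, per barcode, the count of guides called, with their names and UMIs as other fields. No normalized values were used.

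Counts of members and comparison cells were summed per library and gene, and tested with edgeR 4.0.16 (quasi-likelihood, TMM, filterByExpr) in R 4.3.3 with library as a block where both groups came from each library. The threshold was a Benjamini-Hochberg adjusted p of 0.05. DESeq2 1.42.0 was an alternative. Shares used exact Clopper-Pearson intervals and an exact permutation test over libraries in Python 3.11.15 (scipy 1.17.1). Library pairs both groups, and their deviations correlated at 0.62, 0.59, 0.75 and 0.68, so the block is part of the design. Doublets were treated by keeping barcodes with 1 guide only, and no doublet caller was run. The code was tested on simulated data. Coordinates and promoters are from GENCODE and RefSeq annotations of GRCm38.

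The members and gene lists were chosen with earlier results of these data known. Genes named always are Lag3, Prf1, Tox, Slamf6, Il7r, Gzmb, Ifng and Tnf. Per list, up to 4 called genes of the largest difference with a mean log2 CPM of at least 4 were eligible, and outside the lists the 8 largest rises and 8 largest falls with a mean log2 CPM of at least 5 and 1 sign in all libraries. Within treatment, 6 fixed genes and the 5 smallest p were named, for the interaction the 3 smallest p, for nearest cells the 5 largest rises and falls, and for targets the 3 highest and 3 lowest by p and Elovl1. Fits of replicates 1 and 2 alone, and of replicate 3 and IgG alone, were added after seeing the data.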

Additional observations from a re-analysis of the deposited data

How the results depend on the processing

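The count of genes that differed between members and other non-cycling cells (1606) stayed within 1.5 times under edgeR with DESeq2 size factors, without the low-count filter, with looser or stricter receptor limits, within 3 median absolute deviations of total UMIs, without cells holding markers of other types, with depth-matched cells, with mitochondrial UMIs of at most 5%, without the Gzmc limit, and with anti-PD-1 replicate 3 and IgG only. It was 633 by DESeq2, 731 after thinning, 256 with nontargeting guides only, 1065 with anti-PD-1 replicates 1 and 2 only, and 1049 to 1384 with 1 library left out. Fewer cells entered the nontargeting fit, and fewer members the thinned fit. Of the 1606 genes, 1582 could be tested with depth-matched cells, 1556 in the same direction and 891 past the threshold, and 1552 after thinning, 1325 in the same direction and 478 past the threshold. Leaving out 1 library gave 0 to 1078 genes within members between treatments, 0 to 79 for the interaction, 29 to 158 against Gzmc-high cells, 63 to 145 against Tcf7-bearing cells and 3131 to 3851 against cycling cells. DESeq2 gave 42, 59 and 2463 for the last 3, the term for the library pair 41 within members, and the interaction without the low-count filter 17. The cause was not tested. The share difference was -0.24 points after thinning, 6.61 over all single-guide cells, 16.0 with at least 3 UMIs and 20.9 to 23.4 with 1 anti-PD-1 library left out.

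Without the replicate block, which leaves the spread between libraries in the error, the counts were 25 for members against other cells, 48 against Gzmc-high cells, 2 against Tcf7-bearing cells, 1360 against cycling cells and 0 targets. The comparison of treatments has 1 library in the IgG arm, so replicates could not be paired there, and the term for the library pair was the only block tried.

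Signs of named genes turned as follows. Tox was at 0.041 with at least 3 UMIs, 0.068 thinned, 0.090 nontargeting, 0.11 depth-matched and 0.028 in replicate 3 and IgG. With nontargeting guides Tnf was at -0.51 and Lilrb4a at -0.015, and in replicates 1 and 2 Tnf was at -0.10 and Ccl1 at -0.038. After thinning Mcm3 was at -0.52, Dut at -0.010, Mcm4 at -0.23, Lig1 at -0.011, Isg15 at 0.25, Irf7 at 0.36, Idi1 at -0.079, Cyp51 at -0.040, Fdps at -0.15, Fos at 0.20 and Ndufs5 at -0.039, and Fos was at 0.10 in replicate 3 and IgG. Between treatments within members, Lag3 was at 0.16 with the term for the library pair, Prf1 at -0.11 without replicate 3, Mt2 at -0.050 with nontargeting guides and Pclaf at 0.23 after thinning. Of 1878 values of named genes against the other cells, 1628 kept direction and call, 229 lost the call and 21 turned.

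Depth per cell limits the rule itself, since a cell with few UMIs can miss the second UMI of either receptor. With 1 IgG library, a treatment effect on any gene or on the share could not be separated from that library, and 3 libraries against 1 cannot give an exact p under 0.25.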
